A study of Mus musculus with 10 samples.

Results

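The 9 interferon-stimulated genes Stat2, Irf1, Irf7, Irf9, Isg15, Ifit1, Ifit3, Rsad2 and Gbp2 were followed through RNA sequencing of the mouse pancreas. They were taken by symbol from a table of raw counts for 24421 genes. All 9 were in the table and all 9 were among the 13688 genes that passed the filter on low counts. A piece of the pancreas tail was sequenced from each of 10 female mice aged 12 weeks. All mice carried Ptf1aCreER, a tamoxifen-inducible Cre recombinase under the control of Ptf1a, a gene of the enzyme-secreting acinar cells, and the nuclear fluorescent reporter nTnG. The groups differed at the insulin receptor gene Insr. The WT libraries (n = 3) had 0 floxed alleles (Insrw/w), the Het libraries (n = 3) had 1 (Insrw/f) and the KO libraries (n = 4) had 2 (Insrf/f). Cre can remove a floxed allele only in cells where Ptf1a is active, while the RNA came from all cells of the piece. Libraries carry their genotype label and mouse number as a name, as in WT-2404. The title of the series asks whether insulin acting on acinar cells drives enzyme production and inflammation, and interferon-stimulated genes are a widely used readout of one branch of inflammation.

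Interferons are secreted proteins that warn tissue of infection and damage. Type I interferon activates JAK kinases, and STAT2 then joins IRF9 in a complex that binds the interferon-stimulated response element in target promoters. Interferon-gamma, made mostly by T and NK cells, acts through the gamma-activated sequence. Macrophages and other myeloid cells are strong responders, although nearly every cell type can respond.

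The promoters of the 9 genes were searched first, because interferon signalling is known to act through these motifs. The 250 bases before each start site were read from RefSeq on GRCm38.p6, the mm10 build that the submitters' processing notes name, and all 9 genes matched, with 11 promoter entries in all. The core of the interferon-stimulated response element was searched as GAAA, then NN, then GAAA, where N is any base, and the gamma-activated sequence as TTCNNNGAA, on both strands. The first was present in 6 of the 9 genes and in 2.98% of all 32851 promoter entries. The second was present in 1 of the 9 and in 7.02% of all entries. The stretches around the matches are shown 5′ to 3′ on the strand of the gene, with the matched letters in capitals. A match describes letters and does not show binding.
Isg15 (chr4:156200865-156200916, minus strand): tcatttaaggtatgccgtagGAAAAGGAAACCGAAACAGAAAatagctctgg
Ifit1 (chr19:34640765-34640823, plus strand): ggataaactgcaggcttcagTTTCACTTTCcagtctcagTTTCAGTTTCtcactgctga
Ifit3 (chr19:34583353-34583426, plus strand): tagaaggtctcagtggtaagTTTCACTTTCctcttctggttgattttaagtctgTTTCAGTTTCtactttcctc
Rsad2 (chr12:26456553-26456592, minus strand): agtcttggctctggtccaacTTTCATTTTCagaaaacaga
Gbp2 (chr3:142620584-142620623, plus strand): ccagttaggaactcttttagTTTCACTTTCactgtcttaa
Stat2 (chr10:128270256-128270295, plus strand): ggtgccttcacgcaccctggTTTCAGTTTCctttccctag
Irf1 (chr11:53769904-53769942, plus strand): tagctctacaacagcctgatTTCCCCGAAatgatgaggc

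Isg15 held 3 overlapping copies of the response element, between 78 and 57 bases before its start. Ifit1 and Ifit3 held 2 copies each, all on the opposite strand, where the GAAA of the core reads as TTTC. Rsad2, Gbp2 and Stat2 held 1 copy each on the opposite strand. The Gbp2 match lies inside the GENCODE gene model, which begins before the RefSeq start. Irf1 held the gamma-activated sequence between 90 and 82 bases before its start and no response element. Irf7 and Irf9 held neither string in these windows. The Irf9 windows lie inside its GENCODE gene model, as does part of the Irf7 window. The bases before these models were thus searched only in part for Irf7 and not for Irf9.

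Total gene counts ranged from 11718559 to 19024351 per library, and the ranges of the 3 groups overlapped. The library WT-2404 stood apart, since digestive enzyme genes took 15.7% of its gene counts against 58.3% to 77.3% in the other 9 libraries. All 11 acinar marker genes were detected in every library. The targeted gene Insr was at 21.0 to 40.5 counts-per-million (CPM) in WT, 28.2 to 44.2 CPM in Het and 22.7 to 35.4 CPM in KO libraries, so these counts, taken over the whole gene and all cells of the piece, do not check the labels. CPM values here are scaled with TMM factors, which correct for differences in RNA composition between libraries. In counts of a whole piece, fewer cells of a type and less RNA per cell cannot be told apart.

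The set holds 4 transcription factors. Stat2 encodes the STAT that forms the type I interferon complex (chromosome 10, 128270559 to 128292849, GRCm38). It stood at 16.3, 16.3 and 12.1 CPM in WT-2404, WT-1860 and WT-2067. In Het-2066, Het-1770 and Het-2042 it stood at 10.96, 9.60 and 10.7 CPM. In KO-2079, KO-2070, KO-2124 and KO-2126 it stood at 10.2, 10.8, 17.8 and 8.89 CPM. All Het values lay below all WT values, while the KO range spanned the WT range because of KO-2124.

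Irf9 encodes the DNA-binding partner of the STATs in that complex (chromosome 14, 55603571 to 55610030). Its WT levels were 15.8, 10.3 and 9.74 CPM, in the same library order. The Het levels were 10.6, 5.59 and 8.84 CPM. The KO levels were 8.34, 8.43, 11.1 and 5.05 CPM. WT-2404 was the highest library, and the 3 groups overlapped.

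Irf7, an interferon-induced factor that amplifies type I interferon production (chromosome 7, 141262706 to 141266481), had the largest fold between its highest and lowest library of the 4 factors, 6.17-fold. It was at 9.77, 5.69 and 4.10 CPM in WT. It was at 4.47, 1.58 and 3.68 CPM in Het libraries. In KO libraries it was at 3.77, 2.11, 4.56 and 2.12 CPM. The WT range overlapped the others through WT-2067 alone, which lay below Het-2066 and KO-2124, and the Het and KO ranges overlapped each other.

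Irf1 encodes a factor induced mainly by interferon-gamma and by NF-kappaB (chromosome 11, 53770014 to 53778374). It was at 15.8, 15.0 and 12.5 CPM in WT. Het libraries had 13.0, 10.2 and 10.1 CPM. KO libraries had 9.64, 15.7, 13.7 and 5.55 CPM. KO-2126 was the lowest of the 10 libraries, and KO-2070 lay just below the highest WT library.

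**Figure D1:**
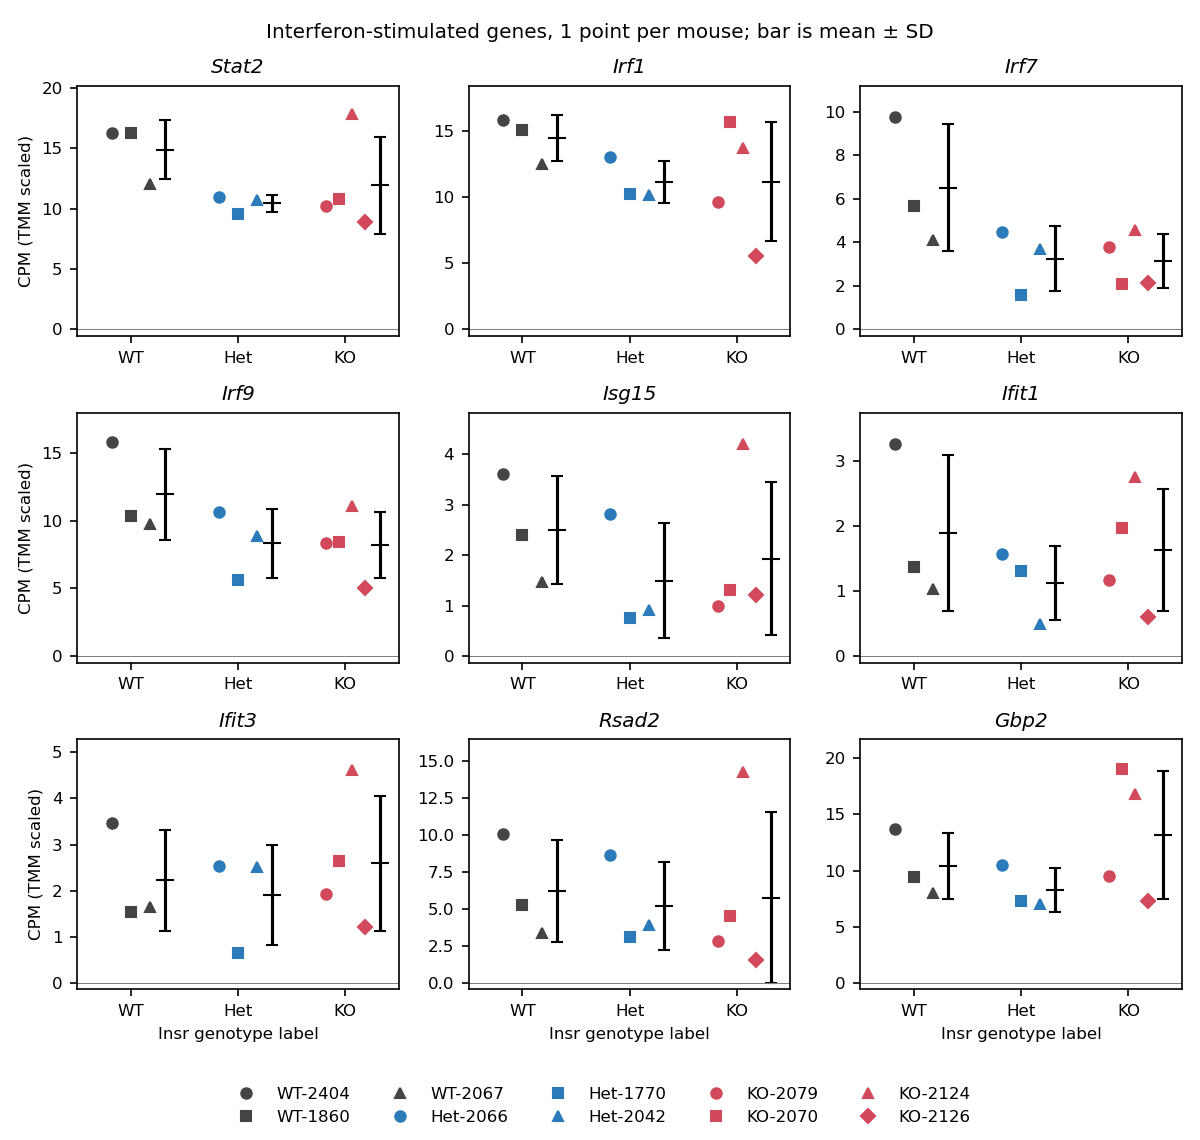
CPM (TMM scaled, linear axis) of the 9 genes by Insr genotype label, with 1 point per mouse and the mean ± SD of each group (n = 3, 3 and 4) beside the points. WT-2404 (dark circle) and KO-2124 (red triangle) lie at or near the top of most panels, and the groups overlap in all comparisons but Stat2 in Het against WT.

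The 5 effector genes encode proteins that act on viruses or inside infected cells, and had 6 to 821 reads per gene and library. Rsad2 encodes viperin, an enzyme that makes a nucleotide blocking viral RNA synthesis (chromosome 12, 26442746 to 26456452). It was at 10.1, 5.25 and 3.37 CPM in WT. It was at 8.59, 3.07 and 3.87 CPM in Het libraries. It was at 2.78, 4.48, 14.2 and 1.51 CPM in KO libraries. The KO group held both the highest and the lowest library, which differed 9.40-fold.

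Isg15 encodes a ubiquitin-like modifier that is attached to other proteins (chromosome 4, 156199424 to 156200818). WT libraries had 3.61, 2.41 and 1.47 CPM. Het libraries had 2.81, 0.745 and 0.920 CPM. KO libraries had 0.989, 1.32, 4.19 and 1.21 CPM. As for Rsad2, 1 library in each group, WT-2404, Het-2066 and KO-2124, was the highest of its group.

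Ifit1 encodes a protein that holds back foreign capped RNA (chromosome 19, 34640871 to 34650009). It was at 3.27, 1.37 and 1.04 CPM in WT and at 1.58, 1.30 and 0.491 CPM in Het libraries. It was at 1.17, 1.98, 2.76 and 0.606 CPM in KO libraries. The lowest values rest on 6 reads in KO-2126 and 8 reads in Het-2042.

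Ifit3, which stabilises the IFIT complex (chromosome 19, 34583531 to 34588731), was at 3.47, 1.53 and 1.65 CPM in WT. It was at 2.54, 0.652 and 2.52 CPM in Het libraries. It was at 1.92, 2.63, 4.61 and 1.21 CPM in KO libraries. Its neighbour Ifit3b is a near copy: 51.2% of the 50-base words of the Ifit3 transcripts also occur in Ifit3b. The table lists 2 to 59 reads for Ifit3b per library, and how shared reads were assigned is not given in the sources used here, so Ifit3 values are uncertain to that extent.

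Gbp2 encodes a guanylate-binding GTPase that is strongly induced by interferon-gamma (chromosome 3, 142620602 to 142638008). It was at 13.7, 9.46 and 8.02 CPM in WT and at 10.5, 7.27 and 6.995 CPM in Het libraries. It was at 9.52, 19.1, 16.8 and 7.27 CPM in KO libraries. Here KO-2070 was the highest library of all, although it was among the lowest for Irf7.

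Levels of different genes were compared per kilobase of annotated exon (GENCODE M21). Averaged over the 10 libraries, Gbp2 was the most abundant at 4.32 ± 1.70 CPM per kilobase (SD, n = 10). Irf1 followed at 3.05 ± 0.815, Isg15 at 2.601 ± 1.61, Stat2 at 2.09 ± 0.540 and Irf9 at 1.74 ± 0.561 CPM per kilobase. Rsad2, Ifit3, Irf7 and Ifit1 lay at 1.32 ± 0.922, 1.30 ± 0.661, 1.11 ± 0.621 and 0.586 ± 0.335 CPM per kilobase. The ranges of all neighbours in this order overlapped. Gbp2 lay above Irf1 in 9 of 10 libraries, while Isg15 lay above Stat2, and Rsad2 above Ifit3, in 5 of 10 each.

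Single mice of different genotype held the extremes of the set. WT-2404 was the highest library for 4 genes (Irf1, Irf7, Irf9 and Ifit1) and the second highest for 3 more. KO-2124 was the highest for 4 others (Stat2, Isg15, Ifit3 and Rsad2) and the second highest for 3. KO-2126 was the lowest for 4 genes, Het-1770 for 3 and Het-2042 for 2. When each gene's log2 CPM was standardised over the libraries, the mean over the 9 genes was 1.28 in WT-2404 and 1.17 in KO-2124. It was -1.30 in KO-2126 and -1.02 in Het-1770. The groups covered -0.17 to 1.28 in WT, -1.02 to 0.37 in Het and -1.30 to 1.17 in KO libraries, so the KO range alone spanned nearly the whole scale.

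**Figure D2:**
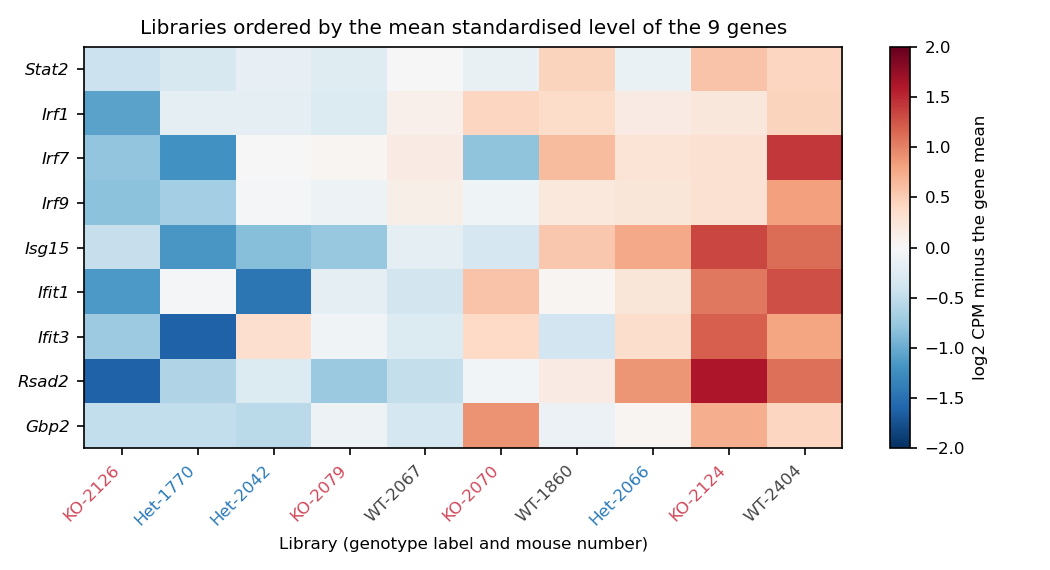
Heat map of log2 CPM minus each gene's mean over 10 libraries (colour scale from -2 to 2), with libraries ordered from left to right by the mean standardised level of the 9 genes and coloured by genotype label. KO-2126 is at the left end and KO-2124 and WT-2404 at the right end, so KO libraries lie at both ends.

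The high libraries had unlike ratios between genes. The ratio of Rsad2 reads to Irf7 reads within a library, which no scaling between libraries can change, was 1.03 in WT-2404 and 3.12 in KO-2124. It was 0.821 to 1.03 in the 3 WT libraries, 1.050 to 1.94 in Het libraries and 0.714 to 3.12 in KO libraries. For Gbp2, the ratio to Irf7 was 1.40 to 1.96 in WT, 1.90 to 4.59 in Het and 2.52 to 9.06 in KO libraries. All 4 KO libraries thus had more Gbp2 reads per Irf7 read than any WT library. The same held for Ifit3, at 0.269 to 0.403 in WT, 0.412 to 0.683 in Het and 0.508 to 1.25 in KO libraries. For Rsad2, Isg15 and Ifit1 the KO and WT ratios overlapped. These ratios share Irf7 as their base, and Irf7 had the most negative log2 fold change of the set in KO against WT. Of all tested genes, 10.1% had a lower value than Irf7 in that comparison. The share of all genes whose ratio to Irf7 separated KO from WT was not computed. The highest Gbp2 ratio, in KO-2070, rests on 16 Irf7 reads. The ratios of Gbp2 and Ifit3 were singled out after their values were seen and were not tested.

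KO against WT compares 2 floxed alleles with none. None of the 9 genes passed an adjusted p of 0.05 in edgeR's quasi-likelihood test (0 genes, where 0% of all 13688 tested genes passed). DESeq2 also placed 0 of the 9 past its threshold, where 7.68% of the genes it adjusted passed. At an unadjusted p below 0.05, edgeR had 1 of the 9, Irf7, lower in KO libraries, beside 13.9% of all tested genes in that direction. No gene of the 9 had separate CPM ranges, beside 9.17% of all tested genes that were lower and 6.74% that were higher with separate ranges. Without KO-2124, 4 of the 9 had separate ranges and 3 had an unadjusted p below 0.05 in edgeR, all lower. The shares of all tested genes in either direction were 30.1% and 28.3%. In the lower direction alone, 16.4% of all tested genes had an unadjusted p below 0.05 in that fit.

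Irf7 averaged 6.52 ± 2.92 CPM in the WT group (SD, n = 3) and 3.14 ± 1.23 CPM in the KO group (SD, n = 4). Its log2 fold change was -1.03 (SE 0.40), with an unadjusted p of 0.0245 and an adjusted p of 0.160 in edgeR. An exact permutation test over the mice (two-sided) gave p = 0.114, where the smallest that 3 against 4 mice allow is 0.0286. Without WT-2404 the log2 fold change was -0.59, and no member then had an unadjusted p below 0.05 (0 of 9). The other factors had log2 fold changes of -0.54 (SE 0.29) for Irf9, -0.38 (SE 0.28) for Irf1 and -0.31 (SE 0.23) for Stat2, with edgeR adjusted p-values of 0.268, 0.422 and 0.428.

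Of the effectors, Ifit1, Rsad2 and Ifit3 lay nearer to 0 than any of the factors, while Isg15 and Gbp2 lay farther from 0 than Stat2. Isg15 had a log2 fold change of -0.34 (SE 0.58), Ifit1 of -0.23 (SE 0.57) and Rsad2 of -0.09 (SE 0.67). Ifit3 and Gbp2 had 0.22 (SE 0.53) and 0.33 (SE 0.32). Their edgeR adjusted p-values ran from 0.553 to 0.945. The values of 4 of them changed sign or size with single mice: without WT-2404 the values were 0.048 for Isg15, 0.46 for Ifit1 and 0.47 for Rsad2, and without KO-2124 they were -1.14, -0.67 and -1.14. Ifit3 was at -0.26 without KO-2124, while Gbp2 stayed between 0.11 and 0.59 when any 1 library was left out. In all, 7 of the 9 genes had a negative log2 fold change with a median of -0.31, beside 48.2% of all tested genes and a median of 0.03. Scaling by library size alone, which put the median of all genes at -1.17, took Irf7 and Irf9 past the adjusted threshold in edgeR, at -2.36 and -1.80.

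**Figure D3:**
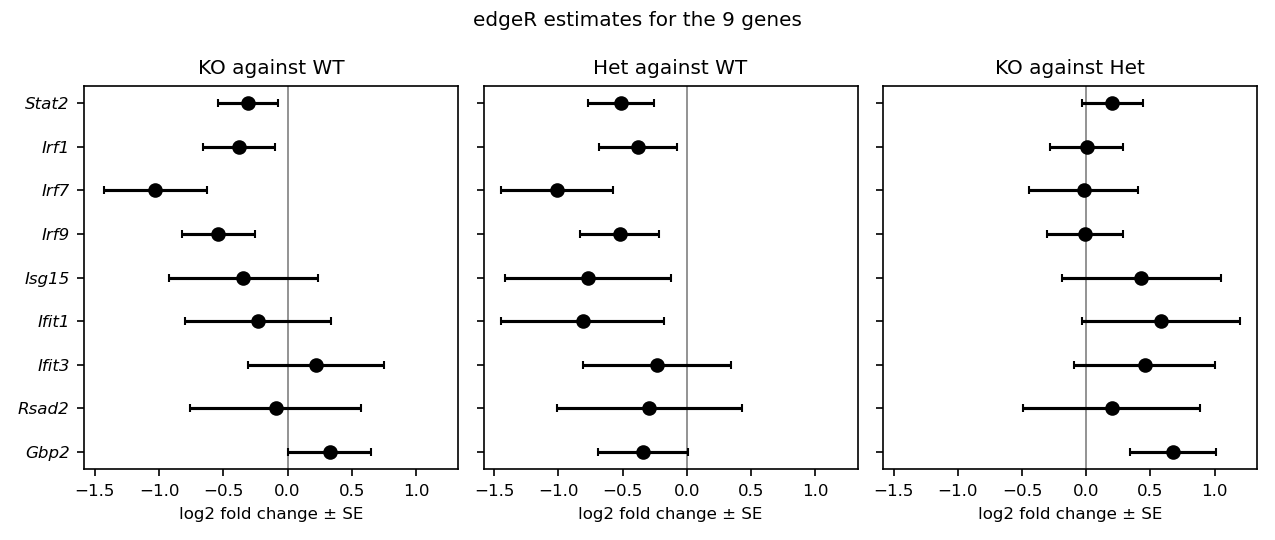
log2 fold changes (horizontal axis) with their standard errors from edgeR for the 9 genes, in KO against WT, Het against WT and KO against Het. The 4 transcription factors lie left of 0 in both comparisons with WT, the effectors have wider error bars, and no gene passed the adjusted threshold in any panel.

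Het against WT compares 1 floxed allele with none and shares the WT libraries with the comparison above. None of the 9 genes passed in edgeR (0 genes, beside 0% of all tested genes), nor in DESeq2 (0 of 9, beside 3.46% of the genes it adjusted). At an unadjusted p below 0.05 there was again 1 member, Irf7, lower in Het libraries, beside 11.6% of all tested genes. Irf7 averaged 3.25 ± 1.49 CPM in Het libraries (SD, n = 3), which gives a log2 fold change of -1.01 (SE 0.44, unadjusted p = 0.0391 and adjusted p = 0.231 in edgeR). Without WT-2404 it was -0.57. Stat2 was the 1 member with separate ranges, beside 13.5% of all tested genes that were lower with separate ranges. Without Het-2066, 6 of the 9 were lower with separate ranges, beside 33.3% of all tested genes in either direction, and without WT-2404 no member had an unadjusted p below 0.05 (0 of 9).

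Stat2 averaged 14.9 ± 2.43 CPM in the WT group (SD, n = 3) and 10.4 ± 0.732 CPM in Het libraries (SD, n = 3). Its log2 fold change was -0.51 (SE 0.25), with an edgeR adjusted p of 0.272 and an exact permutation p of 0.1 (two-sided), the smallest that 3 against 3 mice allow. All 9 genes had negative log2 fold changes, from -0.23 for Ifit3 to -1.01 for Irf7, with a median of -0.51. Of all tested genes 49.7% were below 0, with a median of 0.0047. Without WT-2404, Ifit3 and Rsad2 were at 0.29 and 0.27. With library size alone the 4 factors passed in edgeR, from -1.80 for Irf1 to -2.58 for Irf7, where the median of all genes was -1.36.

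KO against Het compares 2 floxed alleles with 1. None of the 9 genes passed in edgeR or DESeq2 (0 genes in each, beside 0% of all tested genes in both), and 0 had an unadjusted p below 0.05, beside 0.351% of all tested genes lower and 0.402% higher. None had separate ranges (0 of 9, beside 1.16% lower and 1.3% higher). The 4 factors stood between -0.02 (Irf7) and 0.20 (Stat2). All 5 effectors had positive log2 fold changes, from 0.20 (SE 0.69) for Rsad2 to 0.67 (SE 0.33) for Gbp2, whose edgeR adjusted p was 1.0 and unadjusted p 0.0673. Gbp2 averaged 8.26 ± 1.96 CPM in Het (SD, n = 3) and 13.2 ± 5.67 CPM in the KO group (SD, n = 4). Without KO-2124, the effectors Isg15, Ifit3 and Rsad2 were at -0.37, -0.037 and -0.86, while Gbp2 and Ifit1 stayed above 0 at 0.50 and 0.14. In all, 7 of the 9 genes were above 0, with a median of 0.20, while 48.6% of all tested genes were below 0.

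Cell type markers differed between the same libraries. The 10 macrophage markers, all detected in every library, summed to 463 to 1905 CPM in WT, 248 to 377 CPM in Het and 144 to 535 CPM in KO libraries. All 10 had a negative log2 fold change in both comparisons with WT, and 0 passed in edgeR. At an unadjusted edgeR p below 0.05, 10 of 10 were lower in each, beside 13.9% of all tested genes in KO and 11.6% in Het. DESeq2 placed 9 past its threshold in KO and 4 in Het, beside 7.68% and 3.46% of the genes it adjusted. WT-2404 held 1905 CPM, while WT-1860 and WT-2067 held 735 and 463 CPM, the last below KO-2124. The marker lists were not tested without WT-2404. The 4 general leukocyte markers summed to 89.2 to 241 CPM in WT, 42.8 to 62.7 CPM in Het and 25.9 to 86.3 CPM in KO libraries. B cell markers covered 12.6 to 32.9 CPM in WT, 6.24 to 7.80 CPM in Het and 1.31 to 20.3 CPM in KO libraries. T cell markers covered 6.68 to 14.4, 3.07 to 3.99 and 2.12 to 9.91 CPM in the same order. Neutrophil markers covered 9.98 to 94.7 CPM in WT, 4.05 to 10.8 in Het and 1.19 to 11.7 in KO libraries. The highest sum was that of WT-2404, while WT-1860 stood at 12.9 CPM. All 5 had negative log2 fold changes in KO against WT, with a median of -2.51. At an unadjusted p below 0.05 in edgeR, 4 were lower, beside 13.9% of all tested genes. NK cell markers lay between 0.404 and 3.27 CPM over all libraries. The markers of plasmacytoid dendritic cells, strong makers of type I interferon, summed to between 2.52 and 7.93 CPM. Most of that sum was Il3ra in every library, as with 7.13 CPM in WT-2404 and 6.45 CPM in KO-2124. Siglech and Ccr9, of the same list, had 19 and 18 reads in WT-2404 and 18 and 3 in KO-2124. Neither passed the filter on low counts, and Ccr9 was at 0 in Het-2066, Het-1770, KO-2070 and KO-2126. The sum is thus mainly a reading of Il3ra. Defining markers at 0 included Cd8a, Cd3d and Ms4a1 in KO-2126, Cd3g in KO-2070 and KO-2126, Siglech in Het-2066 and KO-2126 and Ncr1 in Het-1770, KO-2079 and KO-2070. The part of these cells in the levels of the 9 genes was not tested.

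**Figure D4:**
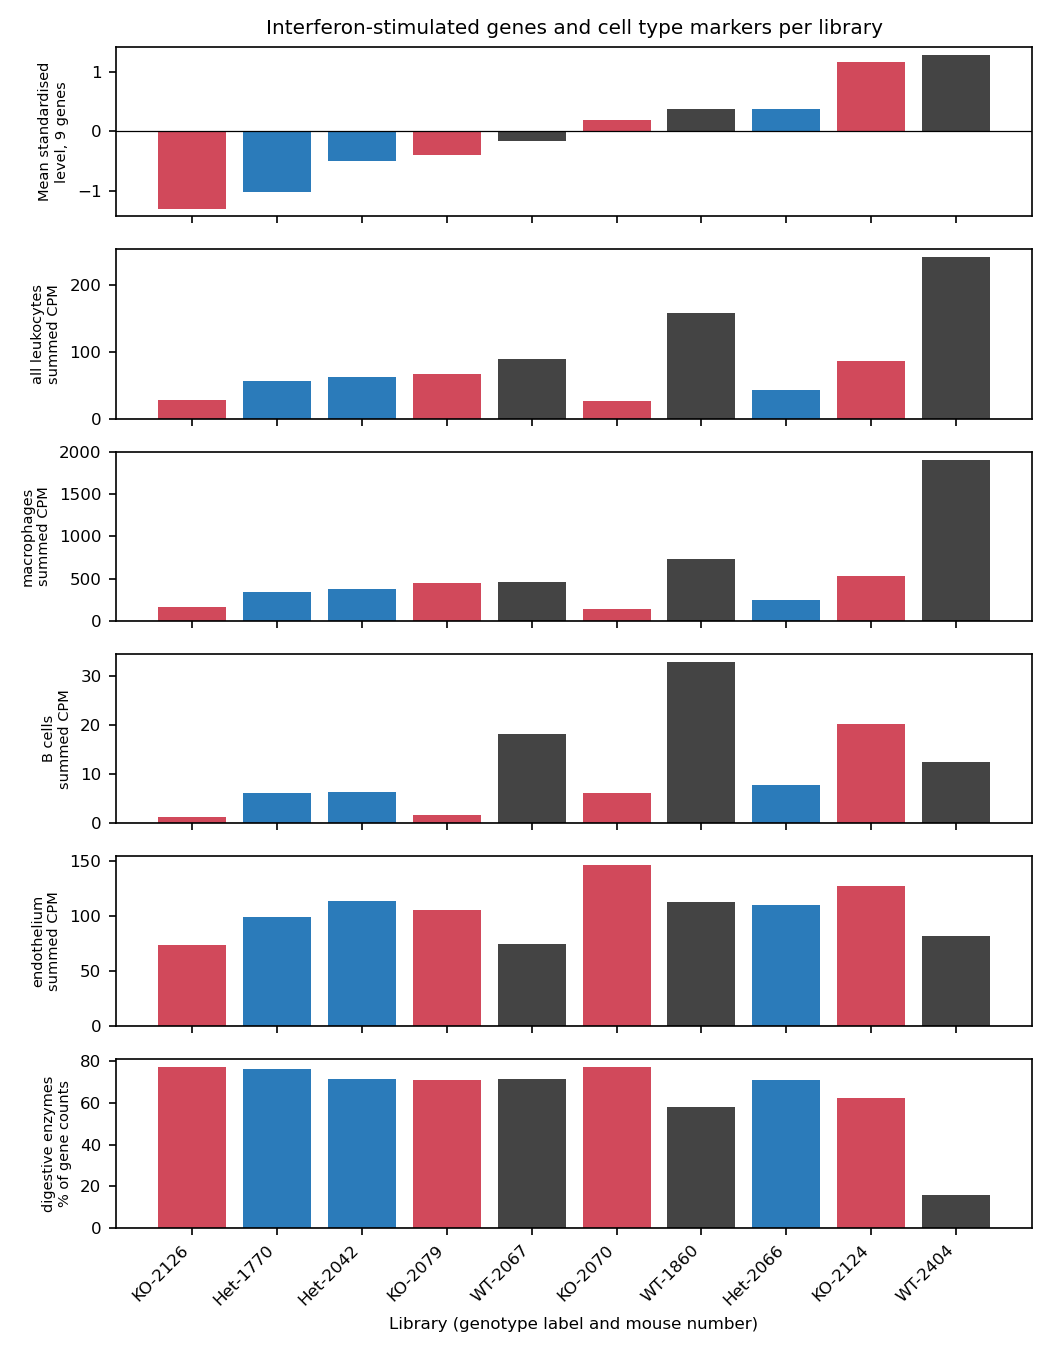
Per library, from top to bottom: the mean standardised log2 CPM of the 9 genes, the summed CPM of the leukocyte, macrophage, B cell and endothelial marker lists, and the percentage of gene counts in digestive enzyme genes, all on linear axes with libraries ordered by the top panel. WT-2404, at the right end, has the highest leukocyte and macrophage sums and the lowest enzyme share (15.7%), while KO-2124 beside it has 86.3 CPM of leukocyte and 535 CPM of macrophage markers.

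The 2 libraries with the highest interferon-stimulated levels differed in these markers. WT-2404 had 1905 CPM of macrophage markers and KO-2124 had 535 CPM. Rsad2 stood at 0.528 CPM per 100 CPM of macrophage markers in WT-2404, the lowest of the 10 libraries, and at 2.66 in KO-2124. The highest values, 3.47 and 3.11, were those of Het-2066 and KO-2070. Per 100 CPM of leukocyte markers WT-2404, at 4.18, was not the lowest, since WT-1860, WT-2067 and KO-2079 lay at 3.33, 3.77 and 4.16. The markers of fibroblasts (1209 to 4305 CPM in WT, 485 to 942 in Het and 424 to 1085 in KO) and duct cells (241 to 420, 113 to 227 and 86.9 to 196 CPM) were also highest in WT. Endothelial markers overlapped between the groups, at 74.5 to 113 CPM in WT, 99.0 to 114 in Het and 73.7 to 147 in KO libraries. Islet markers covered 444 to 5409 CPM in WT, 4708 to 9337 in Het and 3401 to 8055 in KO libraries. Acinar markers summed to 28704 to 571257 CPM in WT, 584292 to 847912 in Het and 319015 to 924368 in KO libraries. All 11 had positive log2 fold changes in both comparisons with WT, with medians of 1.14 in KO and 1.16 in Het libraries. In edgeR 0 had an unadjusted p below 0.05, beside 9.6% and 8.26% of all tested genes that were higher.

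The rest of the interferon pathway was described by 9 further lists with 121 genes. The table held 120 of them and 102 were tested. None passed in edgeR in any of the 3 comparisons (0 genes). At an unadjusted p below 0.05, 33 were lower and 2 higher in KO than in WT libraries, beside 13.9% lower and 9.6% higher of all tested genes. In Het libraries 38 were lower and 3 higher than in WT, beside 11.6% and 8.26% of all tested genes. In KO against Het there were 0 in either direction. DESeq2 placed 9 genes lower and 1 higher in KO against WT, beside 7.68% of all genes it adjusted in either direction. It placed 5 lower in Het against WT, beside 3.46%, and 0 in KO against Het, beside 0%. It gave no adjusted p to 5 and 16 of the 102 genes in the comparisons with WT.

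The ligands came first. Of 12 interferon genes, 9 had no read in any library, among them Ifnb1, and Ifng had 3 reads in all 10 libraries together. None was tested. A count of 0 in a library allows up to 3 reads, or 0.0501 to 0.395 CPM depending on the library, so low interferon expression was not detectable at this depth.

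The receptors were counted well. Ifnar2, a chain of the type I interferon receptor, was at 14.8 to 21.8 CPM in WT, 11.05 to 14.2 CPM in Het and 9.09 to 12.5 CPM in KO libraries. The WT range lay above both others. Set against WT, its log2 fold change in KO libraries was -0.68 (SE 0.19) with an adjusted p of 0.116 in edgeR, while DESeq2 placed it past the threshold. The interferon-gamma receptor chains Ifngr1 and Ifngr2 had -0.67 (SE 0.26) and -0.51 (SE 0.20), and the shared chain Il10rb 0.10 (SE 0.18). Of the 6 receptor genes, 3 passed an unadjusted p of 0.05 in that comparison, all lower, beside 13.9% of all tested genes. The receptor median was -0.52. Without WT-2404 there was 1 gene, beside 5.29% of all tested genes that were lower, and the receptor median was -0.25.

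The receptor kinases Jak1, Jak2 and Tyk2 had log2 fold changes of 0.09 (SE 0.20), -0.19 (SE 0.17) and -0.12 (SE 0.17) in KO against WT. Among 5 genes that restrain the signal, Socs3, an inhibitor of JAK signalling, had -0.94 (SE 0.26) in KO and -1.19 in Het libraries, both against WT. DESeq2 placed Socs3 past its threshold in both, and edgeR did not, with an adjusted p of 0.116 in KO against WT. All 5 had negative values in both comparisons, beside 48.2% and 49.7% of all tested genes. At an unadjusted p below 0.05 in edgeR, 1 was lower in KO and 2 in Het libraries, beside 13.9% and 11.6% of all tested genes. Without WT-2404, 1 was lower in each, beside 5.29% and 3.61%. The list medians were then -0.17 and -0.54, instead of -0.24 and -0.61. DESeq2 gave no adjusted p to 2 of the 5 in Het against WT.

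Nucleic acid sensors and adaptors, which start interferon production, had a median of -0.96 when KO was set against WT. At an unadjusted p below 0.05, 9 of the 15 were lower and 1 was higher, beside 13.9% and 9.6% of all tested genes. The adaptor Tmem173 (STING) averaged 14.3 ± 7.03 CPM in WT (SD, n = 3), 4.66 ± 1.28 CPM in Het (SD, n = 3) and 4.90 ± 2.28 CPM in the KO group (SD, n = 4). Its log2 fold changes against WT were -1.52 (SE 0.40) in KO and -1.62 in Het libraries. Zbp1 and Dhx58, which recognise viral nucleic acid, had -1.63 (SE 0.55) and -1.15 (SE 0.40) in KO against WT. Mavs, the mitochondrial adaptor of the RNA sensors, had a positive value of 0.69 (SE 0.21), at 9.68 to 14.6 CPM in WT and 15.9 to 23.9 CPM in KO libraries. DESeq2 placed Tmem173 and Mavs past its threshold in KO against WT. Without WT-2404, 1 of the 15 genes was lower and 1 higher at an unadjusted p below 0.05. Beside these stood 5.29% and 4.13% of all tested genes, and the list median was -0.49.

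The 6 other interferon regulatory factors had values of both signs. Irf8, Irf5 and Irf4, factors of myeloid and lymphoid cells, had log2 fold changes of -1.50 (SE 0.48), -1.37 (SE 0.45) and -1.49 (SE 0.51) in KO against WT. Irf3, the widely expressed factor that starts interferon transcription, had 0.42 (SE 0.20). The edgeR adjusted p-values of these 4 genes ran from 0.125 to 0.226. Without WT-2404, 1 of the 6 was lower at an unadjusted p below 0.05, instead of 3, beside 5.29% of all tested genes instead of 13.9%. Beside them, the macrophage, B cell and T cell markers named above had medians of -1.72, -1.45 and -0.80 in the same comparison. A link between these markers and the regulatory factors was not tested.

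Of 38 other antiviral interferon-stimulated genes tested, 13 were lower and 0 higher at an unadjusted p below 0.05 in KO against WT. The shares of all tested genes were 13.9% and 9.6%, and the list median was -0.62. Lgals3bp, Oas1a and Ifi27l2a had the smallest p, at -1.28 (SE 0.31), -1.39 (SE 0.36) and -1.55 (SE 0.40), each with an edgeR adjusted p of 0.116. Oas1a, which makes the signal that activates RNase L, was at 2.94 to 5.90 CPM in WT, 1.21 to 1.78 in Het and 1.01 to 2.35 CPM in KO libraries, with the WT range above both others. Ifi44, Cmpk2 and Ifi27 had 0.28 (SE 0.52), 0.20 (SE 0.29) and 0.19 (SE 0.23). Het against WT had 12 lower genes, beside 11.6% of all tested genes, and a list median of -0.55. Without WT-2404 the counts were 5 and 3 genes, with medians of -0.26 and -0.21, beside 5.29% and 3.61% of all tested genes that were lower. Without KO-2124, 21 of 36 were lower in KO against WT at an unadjusted p below 0.05, beside 16.4% of all tested genes.

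**Figure D5:**
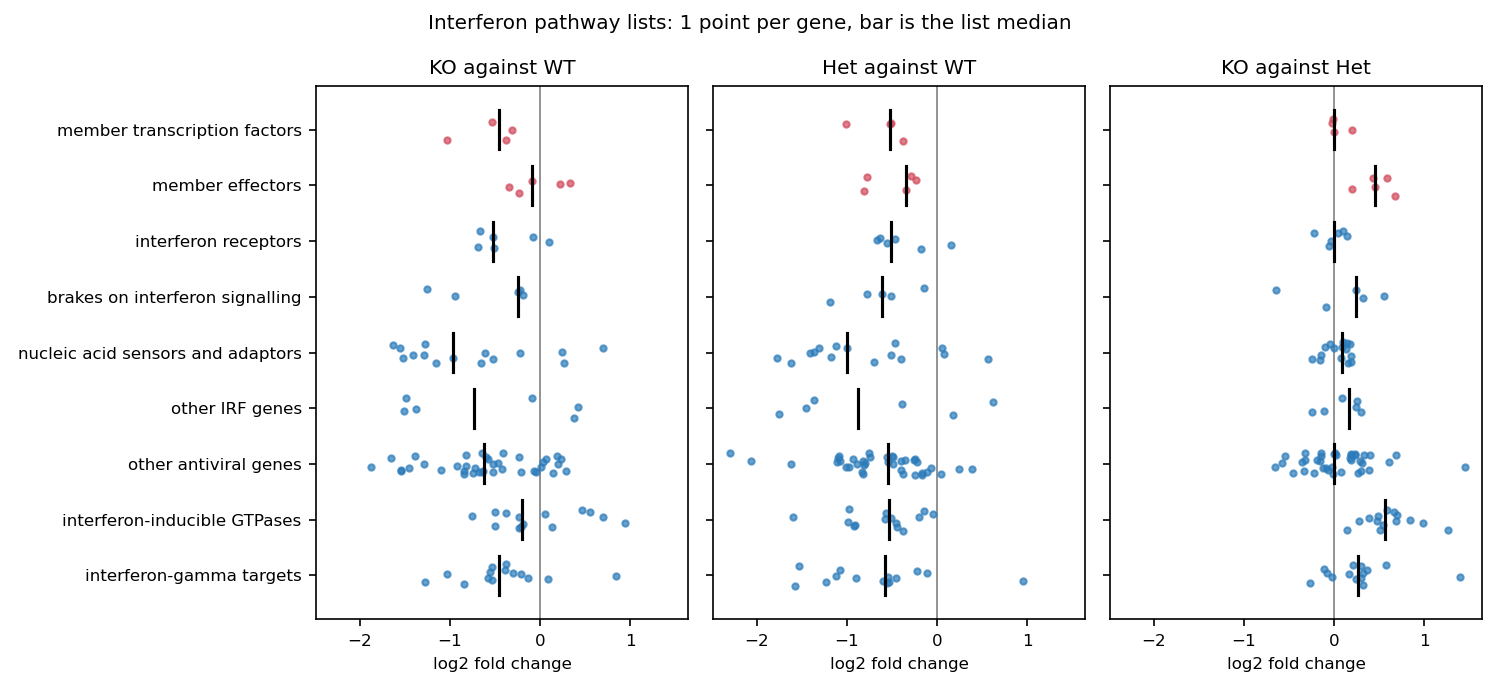
log2 fold change (horizontal axis) of each tested gene in the interferon pathway lists other than the kinases, 1 point per gene with the list median as a bar, in KO against WT, Het against WT and KO against Het; the 9 genes of the set are in red. List medians lie left of 0 in both comparisons with WT. In KO against Het all 14 interferon-inducible GTPase genes lie right of 0, while 48.6% of all tested genes were below 0.

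The interferon-inducible GTPases, the family of Gbp2, defend cells against vacuolar pathogens. When KO was set against WT, 0 of 14 had an unadjusted p below 0.05, beside 13.9% of all tested genes lower and 9.6% higher. By sign, 8 were lower and 6 higher, with a median of -0.20. Without WT-2404, 10 of 14 were higher and the median was 0.12. In Het against WT all 14 were below 0, beside 49.7% of all tested genes, with a median of -0.54. At an unadjusted p below 0.05, 2 were lower, beside 11.6% of all tested genes. With WT-2404 left out, 10 of 14 were below 0 and 0 had an unadjusted p below 0.05. In KO against Het all 14 were above 0, as Gbp2 was, with a median of 0.56. Below 0 were 48.6% of all tested genes. The 14 genes were read in the same libraries, so they are not independent observations. At an unadjusted p below 0.05 in edgeR there were 0, beside 0.402% of all tested genes that were higher, and 0 passed in DESeq2. Without KO-2124, 11 of 13 were above 0 in KO against Het, with a median of 0.44. Of those lower in KO against WT, Gbp7, Ifi47 and Igtp had the smallest p, at -0.49 (SE 0.38), -0.50 (SE 0.46) and -0.38 (SE 0.37). Of those higher, Tgtp1, Gbp4 and Iigp1 had the smallest p, at 0.94 (SE 0.68), 0.55 (SE 0.49) and 0.46 (SE 0.43). Each pair of these comparisons shares a group of libraries, so their values are not independent.

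Of 14 tested interferon-gamma targets in antigen handling and chemotaxis, 3 were lower and 1 higher at an unadjusted p below 0.05 in KO against WT. Among all tested genes 13.9% were lower and 9.6% higher, and the list median was -0.46. B2m, the light chain of class I MHC, averaged 178 ± 90.1 CPM in the WT group (SD, n = 3) and 99.4 ± 27.9 CPM in the KO group (SD, n = 4). Ciita, the activator of class II MHC genes, averaged 7.95 ± 1.44 CPM in the WT group (SD, n = 3) and 3.76 ± 2.39 CPM in the KO group (SD, n = 4). The immunoproteasome subunit Psmb10 averaged 39.7 ± 22.4 CPM in the WT group (SD, n = 3) and 71.1 ± 14.6 CPM in the KO group (SD, n = 4). Its log2 fold change was 0.84 (SE 0.38), with an adjusted p of 0.209 in edgeR. Without WT-2404, 0 of the 14 had an unadjusted p below 0.05, beside 5.29% of all tested genes lower and 4.13% higher.

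Genes of like pattern were sought by the correlation of log2 CPM with the mean standardised level of the 9 genes over the 10 libraries, as a description. All 10 libraries enter both measures, which also share depth and scaling. The median over all 13688 genes was 0.04 and 33 genes lay above 0.9. Outside the pathway lists, the 5 highest were Cdca2 (0.976), Nxpe2 (0.967), Dpt (0.962), Ptprg (0.941) and Cks2 (0.939). Group means of Cdca2, Nxpe2 and Cks2 were low, from 0.495 to 2.23 CPM, so their correlations rest on few reads. Those of Dpt and Ptprg lay between 11.2 and 54.9 CPM. Within the lists they were Parp14 (0.925), Sp100 (0.914), Samd9l (0.893), Nlrc5 (0.888) and Gbp5 (0.870). Of the 9 genes themselves, Rsad2 (0.932) and Irf9 (0.922) lay closest to the mean of the set, of which they are part, and Gbp2 (0.763) and Irf7 (0.781) farthest. Without KO-2126 and WT-2404, the libraries farthest from the median of the set, Parp14 was at 0.859, Irf7 at 0.604 and Cdca2 at 0.952 over 8 libraries.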

How the data were processed

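Per the labels' protocols, frozen tail pieces were pulverised and RNA was isolated with a column kit. The authors deposited 1 table of raw counts per gene symbol. DRAGEN, STAR, Cufflinks and mm10 are named in the submitters' processing notes without roles. The counting tool and its use of strand are not given in the sources used here, so genes that overlap others are uncertain. The 2 lines for reads outside genes (2.59% to 8.71% of counts) and ambiguous reads (0.101% to 0.584%) were left out. A part of the genotype shared by all groups and some genes of the lists are not reported here. The labels count 1 further WT mouse, which was not analysed here.

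Genes were tested with edgeR 4.0.16 in R 4.3.3 (TMM factors, filterByExpr with a minimum count of 10, and the robust quasi-likelihood functions glmQLFit and glmQLFTest) in a single fit of all 10 libraries without covariates. Tests were two-sided, and the p-values of all tested genes were adjusted together (Benjamini-Hochberg, threshold 0.05). Standard errors came from the quasi-F statistic. A prior count of 2 entered log2 CPM. Alternatives were DESeq2 1.42.0, library size alone, TMM factors without digestive enzyme genes, a filter of at least 1 count, fits on the 2 groups compared and leaving out each library. Pathway lists without WT-2404, Het-2066 or KO-2124 were added after the data were seen. No pair of libraries in a group agreed within sampling noise (chi-square per degree of freedom of 26.5 or more), so each counted as 1 replicate. The set and the lists were chosen with earlier results of these data known. Named beside the set were up to 3 genes per pathway list and direction with the smallest unadjusted p in KO against WT, genes without reads, Ifit3b, markers, and the 5 genes of most similar pattern inside and outside the lists.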

Additional observations from a re-analysis of the deposited data

Results flagged for a closer look

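Isg15 stood at 4.19 CPM in KO-2124, while the remaining 3 KO libraries held 0.989 to 1.32 CPM. The gap to its nearest neighbour was 0.898 of the range of the group, above Dixon's critical value for a group of 4. Of 22 measures per library examined in this way (the 9 genes, 12 marker lists and the enzyme share), this was the 1 measure past that value, where chance gives about 1.1. Groups of 3 libraries were not examined.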

How the results depend on the processing

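No paired analysis was possible because the genotype groups share no mouse number. Of 405 alternative values of the 9 log2 fold changes, 364 kept their direction and their side of the threshold, 6 passed the threshold only with library size alone, and 35 changed sign, 22 of them in KO against Het. Library size alone shifted the median of all genes to -1.17 in KO and -1.36 in Het libraries, both against WT. Under it 2 members passed the adjusted threshold in KO against WT (Irf7 and Irf9) and 4 in Het against WT (Stat2, Irf1, Irf7 and Irf9). At an unadjusted p below 0.05 there were 4 and 7 members, and 2 members had separate ranges in Het against WT. Because the median of all genes was shifted as well, these counts are not read as a result about the 9 genes. With library size alone, Ifit3 and Gbp2 in KO against WT were at -1.05 and -0.97, above that shift. Irf7 and Irf9 in KO against Het were at 0.22 and 0.21. Irf1 in KO against Het, at 0.0022, was at -0.0020 in DESeq2 and -0.0085 with TMM factors without enzyme genes, and Irf9 at 0.00026 in the fit on 2 groups. That fit gave 2 members at an unadjusted p below 0.05 in Het against WT.

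Leaving out single libraries gave 0 to 3 members at an unadjusted p below 0.05 in KO against WT. There were 3 without KO-2124, beside 16.4% of all tested genes lower and 11.9% higher, and 0 without WT-2404, KO-2070 or KO-2126. The number was 0 to 2 in Het against WT and 0 to 1 in KO against Het. In KO against Het it was 1 without Het-2066, beside 0.549% of all tested genes lower and 0.704% higher. Members with separate ranges numbered 0 to 4 in KO against WT (4 without KO-2124), 1 to 6 in Het against WT (6 without Het-2066) and 0 to 2 in KO against Het (2 without Het-2066). In the first and second of these fits, the shares of all tested genes with separate ranges, given above, were also higher than with all libraries. For KO against Het that share is not given here. Counts of members without a share of all genes are not read as a result about the set. Without any 1 library, 0 members passed the adjusted threshold in edgeR in the 3 comparisons. Over these fits, KO against WT ran from -0.67 to 0.46 for Ifit1, -0.26 to 0.73 for Ifit3, -1.14 to 0.048 for Isg15 and -1.14 to 0.47 for Rsad2, in each case lowest without KO-2124 and highest without WT-2404. Het against WT ran from -0.49 to 0.29 for Ifit3 and -0.85 to 0.27 for Rsad2. KO against Het ran from -0.037 to 0.71 for Ifit3, -0.19 to 0.22 for Irf1, -0.34 to 0.26 for Irf7, -0.23 to 0.19 for Irf9, -0.37 to 1.24 for Isg15, -0.86 to 0.76 for Rsad2 and -0.089 to 0.32 for Stat2. The cause of these changes was not tested. Where an arm held 2 libraries, the fit pools the spread over groups. Counts of 6 to 60 reads in most libraries limit the precision for Isg15, Ifit1 and Ifit3.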
